A study of Homo sapiens with 8 samples.

Results

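Enzymes of the kynurenine pathway were followed through H3K4me1 peak lists of the cell line MDA-MB-231, grown from a triple-negative breast cancer. Monomethylation of lysine 4 on histone H3 (H3K4me1) is a chromatin mark of enhancers and of the flanks of active promoters. The 8 genes KYNU, KMO, AFMID, TDO2, IDO1, IDO2, HAAO and QPRT were taken by name out of 19974 protein-coding genes, and KYNU among them had been selected on its difference in covered bases between the lists of this study. ARID1A knockout cells were set against control cells, each genotype with 2 H3K4me1 immunoprecipitates and 2 inputs, 8 samples in 4 groups. ARID1A is a subunit of SWI/SNF, a complex that moves nucleosomes and through ARID1A touches DNA. The labels give neither how the knockout was made nor whether the knockout cells are 1 clone, and no treatment is named for either genotype. Each genotype was deposited as 1 list of peaks, immunoprecipitate over input, with 73600 knockout and 82994 control peaks on chromosomes 1 to 22 and X. The lists hold no spread between replicates, so the differences below are descriptions of the 2 lists and carry no test.

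The pathway is the main route by which cells break down the amino acid tryptophan. IDO1, IDO2 and TDO2 open the tryptophan ring in the first step, AFMID turns the product into kynurenine, and KMO and KYNU use kynurenine in competing reactions. HAAO and QPRT then carry the products of KMO and KYNU on towards NAD. IDO1 is known as a target of interferon gamma in tumours, TDO2 and KMO as liver enzymes, and kynurenine as a ligand of the aryl hydrocarbon receptor AHR.

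Of the 8 enzymes, 5 had more bases under H3K4me1 peaks in the knockout list, and KYNU, the kynurenine-cleaving enzyme, had the largest difference among them. Covered bases were counted over the RefSeq gene record with 5000 bases on either side, and a difference of 1000 bases or more was needed to call a gene higher or lower. KYNU had 56987 covered bases in the knockout list and 10334 in the control list. In bulk cells, a mark on a larger share of cells and a stronger mark in each cell cannot be told apart. TDO2 had 5283 knockout and 0 control bases, IDO2 had 20788 and 16732, IDO1 had 6489 and 2477, and KMO had 5390 and 1597. The 2 lower genes were QPRT with 0 knockout and 3325 control bases and AFMID with 6276 and 7357. HAAO, with 0 knockout and 513 control bases, differed by less than 1000.

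These counts of 5 higher and 2 lower of 8 stand beside 20.2% of all 19974 protein-coding genes called higher and 30.0% called lower. The median difference, knockout minus control, was 3902.5 bases over the 8 genes and 0 bases over all genes. KYNU, selected on this difference, is among the 5 higher genes and in that median. Each of the 8 genes had a peak in at least 1 list. Among the 16814 genes with a peak in either list, 23.99% were called higher and 35.65% lower, with a median difference of -337 bases. Longer genes differ by 1000 bases more often: of 3156 genes with a record within a factor of 2 of the length of KYNU, 29.7% were called higher and 45.2% lower. The difference at KYNU, 46653 bases, ranked 6 of 19974, which is a description of how it was chosen. TDO2 ranked 612, IDO2 897, IDO1 910 and KMO 996. The windows of IDO1 and IDO2 share a knockout peak, so those 2 genes are not independent of each other.

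The order of the 8 genes per length differed between the lists. Peaks covered 30.3% of the KYNU window in the knockout list and 5.49% in the control list. In the knockout list KYNU was the most covered of the 8 windows, followed by IDO1 (26.1%), IDO2 (22.7%), AFMID (20.7%), TDO2 (19.8%) and KMO (7.36%), with HAAO and QPRT at 0. In the control list the order was AFMID (24.2%), IDO2 (18.2%), QPRT (11.2%), IDO1 (9.95%), KYNU, KMO (2.18%), HAAO (1.45%) and TDO2 at 0. With 1 list per genotype, which neighbours in these orders differ beyond the spread between cultures cannot be told.

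**Figure D1:**
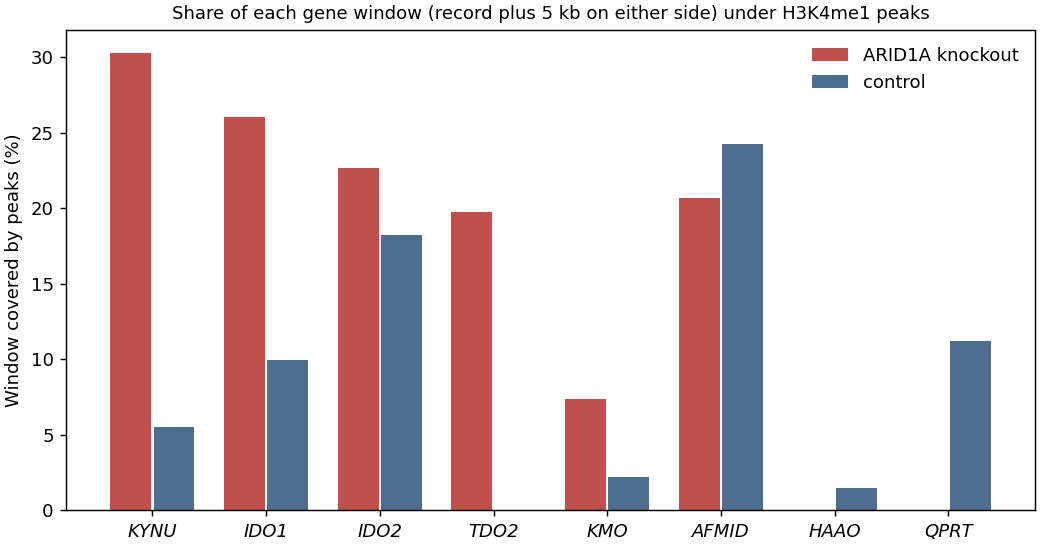
Percent of each gene window (RefSeq record plus 5 kb on either side, y axis) under H3K4me1 peaks in the ARID1A knockout list (red, left bar) and the control list (blue, right bar). KYNU reached 30.3% in the knockout list and 5.49% in the control list, whereas HAAO and QPRT had peaks in the control list alone.

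KYNU lies on the plus strand of chromosome 2 (chr2:142877664-143055833 in GRCh38.p14, the hg38 assembly), and it encodes kynureninase, which cleaves kynurenine and 3-hydroxykynurenine. Its window was touched by 7 knockout peaks and 6 control peaks. All 7 knockout peaks were at least 2000 bases wide and 5 were at least 7000 bases wide. In the control list 1 of 6 peaks reached either width. Peaks of at least 7000 bases made up 4.93% of the whole knockout list and 4.34% of the whole control list.

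The first peak of each list lay just upstream of the transcription start and was the strongest of the locus. In the knockout list it was 14197 bases wide with a pileup, a signal of stacked fragments, of 36.8 (chr2:142863213-142877409). In the control list it was 11171 bases wide with a pileup of 23.7 (chr2:142866329-142877499). The 2 peaks shared 11081 bases, nearly the whole control peak, and both stopped short of the start, 255 bases before it in the knockout list and 165 bases before it in the control list. The upstream end of each reached the non-coding RNA record LOC105373652.

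Inside the gene, the next peak of each list began at almost the same place after the start but ended far apart. It ran from 1768 to 20634 bases after the start in the knockout list, 18867 bases wide with a pileup of 18.7. The control peak ran from 1660 to 3652 bases after the start, 1993 bases wide with a pileup of 11.6. Both lists thus left the start itself without a peak and had one on each side of it.

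A pair of knockout peaks then followed with no control peak near them. One was 7756 bases wide with a pileup of 14.4, starting 25035 bases after the start (chr2:142902699-142910454), and the nearest control peak was 21383 bases away. The other was 2901 bases wide with a pileup of 15.2, starting 34915 bases after the start (chr2:142912579-142915479), with the nearest control peak 27252 bases away. Farther in, 2 wide knockout peaks each enclosed a whole narrow control peak. At 58053 bases after the start a knockout peak of 10598 bases with a pileup of 14.8 enclosed a control peak of 1206 bases with a pileup of 9.44. At 92511 bases a knockout peak of 9786 bases with a pileup of 19.7 enclosed a control peak of 1088 bases with a pileup of 13.8.

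The remaining peaks of KYNU had no counterpart in the opposite list. A knockout peak of 2333 bases with a pileup of 12.7 began 143831 bases after the start. A control peak of 591 bases with a pileup of 9.08 began 87756 bases after it, and one of 620 bases with a pileup of 7.90 began 151548 bases after it, 5385 bases from the last knockout peak. In all, 3 of 7 knockout peaks overlapped no control peak and 2 of 6 control peaks overlapped no knockout peak, beside 21.3% and 28.2% of the peaks in the whole lists. Both lists together covered 58396 bases of the window, of which 8925 (15.3%) were covered in both.

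**Figure D2:**
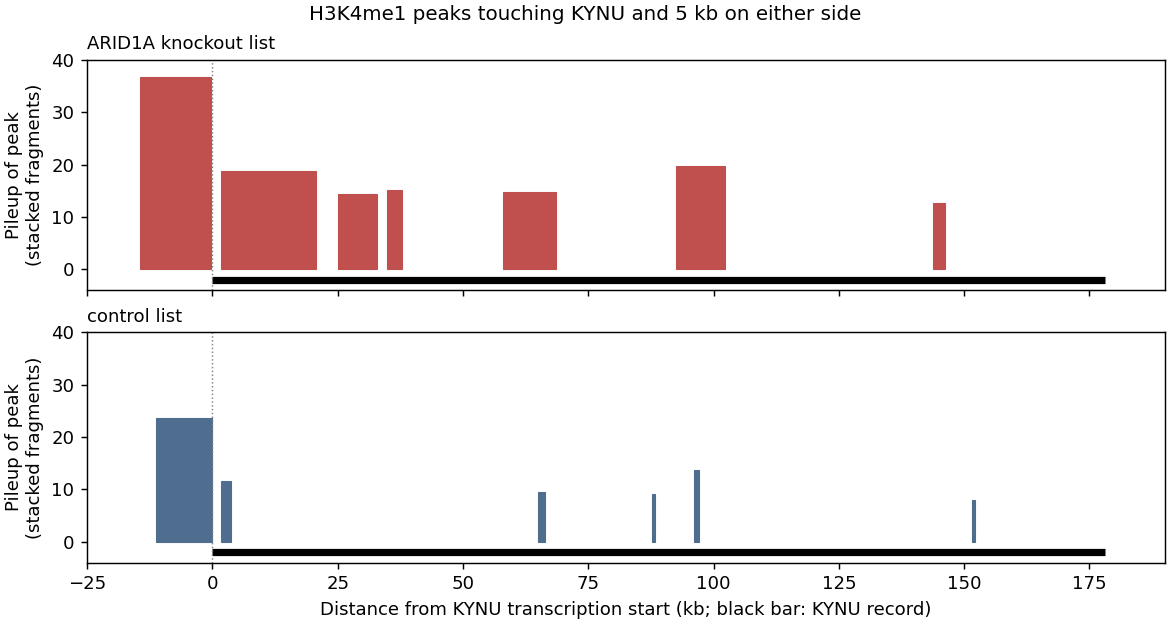
Peaks touching the KYNU window in the ARID1A knockout list (top) and the control list (bottom), by distance from the transcription start in kb (x axis) and pileup (y axis); the black bar is the gene record. The strongest peak of each list ends just before the start, with a pileup of 36.8 in the knockout list and 23.7 in the control list, and the wide peaks inside the gene are in the knockout list.

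Within the KYNU window the difference lay inside the gene and was greatest in its first part. In the 5000 bases upstream of the start, the lists had 4746 knockout and 4836 control bases. Peaks of both lists nearly filled this flank, which left little room for a difference. The first 44542 bases of the record had 29524 knockout and 1993 control bases, and the last 44542 bases had 2333 and 620. No peak of either list lay in the 5000 bases downstream. Excess coverage extended upstream of the window too. The 50 kb before the start, this flank included, had 21570 knockout and 13312 control bases. From 1 Mb upstream of the start to the window, 57761 bases were covered in the knockout list and 26974 in the control list, a ratio of 2.14. From the window to 1 Mb downstream of the record, coverage was 29665 and 22653 bases, a ratio of 1.31, against a ratio of 5.51 in the KYNU window. LRP1B, which encodes a lipoprotein receptor and ends 746648 bases upstream, had 56965 knockout and 42017 control bases. ARHGAP15, a Rac GTPase-activating protein gene that starts 73586 bases downstream, had 19315 and 14520. Both had less than 3% of their windows covered in either list.

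**Figure D3:**
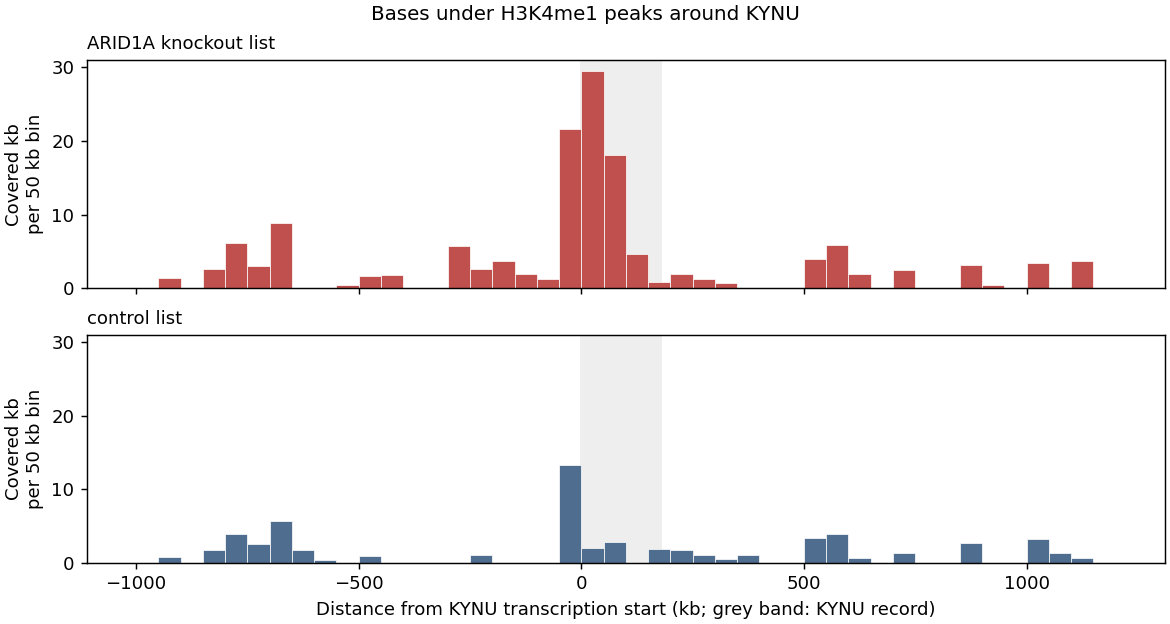
Bases under peaks in bins of 50 kb (y axis, kb) around the KYNU transcription start (x axis, kb) in the ARID1A knockout list (top) and the control list (bottom); the grey band is the gene record. The first bin of the gene holds 29524 covered bases in the knockout list and 1993 in the control list.

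Most of the added coverage at KYNU came from peaks that were wide and of low or middling strength. The authors' −log10 q, which ranks peaks within a list, was 10.4 for the upstream knockout peak and 1.69 to 4.33 for the other 6 knockout peaks. It was 8.06 for the upstream control peak and 1.23 to 2.16 for the other 5 control peaks. In the knockout list the peak of 18867 bases stood at percentile 99.65 for width and at percentile 46.7 for −log10 q. When both lists were held to a −log10 q of at least 3, KYNU kept 33399 knockout and 4836 control bases, and at 4 it kept 14532 and 4836. At 5 only the upstream peaks were left, with 4746 knockout and 4836 control bases in the window. That difference, -90 bases, was too small to call KYNU higher or lower. Both upstream peaks ran past the window edge, where bases were not counted. As whole peaks the knockout one was wider, at 14197 bases against 11171. Over the whole lists 37.5% of knockout peaks and 28.8% of control peaks had a −log10 q of at least 5.

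**Figure D4:**
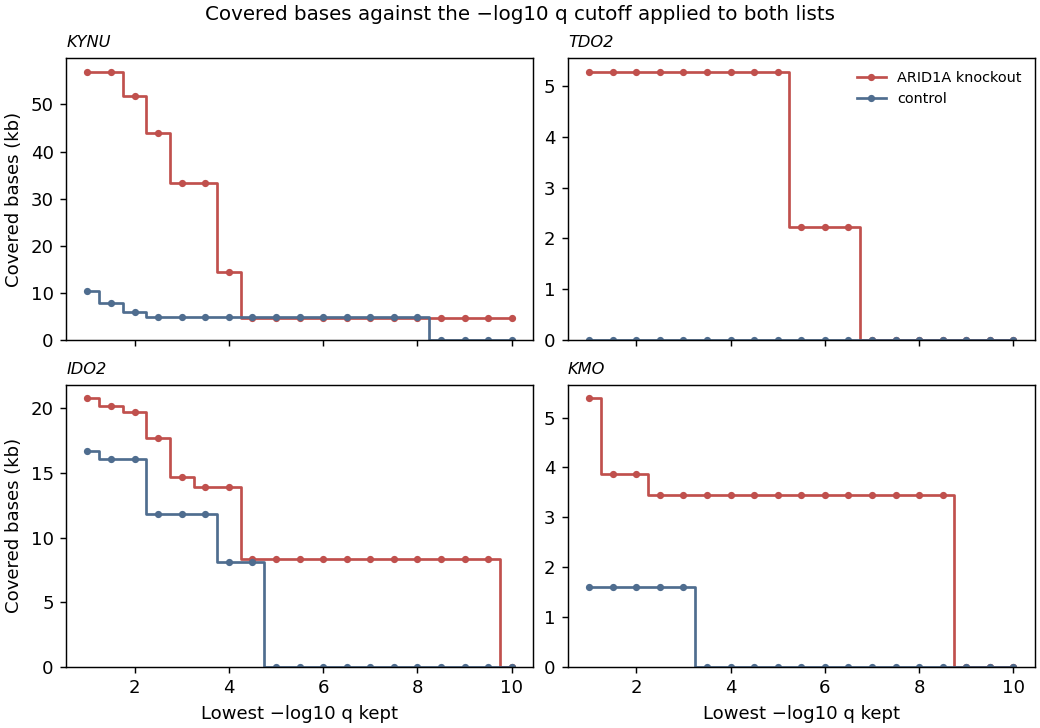
Covered bases (y axis, kb) of KYNU, TDO2, IDO2 and KMO as both lists are held to a rising lowest −log10 q (x axis) in the ARID1A knockout list (red) and the control list (blue). KYNU goes to 4746 knockout and 4836 control bases at a cutoff of 5, where TDO2 still has 5283 knockout and 0 control bases.

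The authors' fold, immunoprecipitate over local input, was not higher at the upstream peak of KYNU in the knockout list (3.63, with 4.01 in the control list), although its pileup was. At the 3 pairs inside the gene the fold was 1.07, 1.11 and 1.17 times as high in the knockout list, beside a median ratio of 0.974 over all pairs. For the 4 overlapping pairs of peaks at KYNU, the pileup of the knockout peak was 1.43 to 1.61 times that of the control peak, where the median over 50395 such pairs was 1.17. The input background implied by pileup and fold was 1.82 times as high in the knockout list at the upstream pair and 1.58, 1.49 and 1.23 times at the 3 pairs inside the gene, beside a median ratio of 1.23 over all pairs. The sources used here do not give how pileups were scaled. The part of the input background in the difference at KYNU was not tested.

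The promoter of KYNU is shown because the upstream peaks of both lists stop at its edge. The sequence runs from 250 bases before to 50 bases after the transcription start (chr2:142877414-142877713, plus strand, GRCh38.p14, from RefSeq). The knockout peak ended 5 bases before it, and the control peak covered its first 86 bases. Capitals mark matches, on either strand, to GCGTG, the core of the element bound by AHR, to TGANTCA, the element bound by AP-1, and to TATAAA, the TATA box.
KYNU promoter: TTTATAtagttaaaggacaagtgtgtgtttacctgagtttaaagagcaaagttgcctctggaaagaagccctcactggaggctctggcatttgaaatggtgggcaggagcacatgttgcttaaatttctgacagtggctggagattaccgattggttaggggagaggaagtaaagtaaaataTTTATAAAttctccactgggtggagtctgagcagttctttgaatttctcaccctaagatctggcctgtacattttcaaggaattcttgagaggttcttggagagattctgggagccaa

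In the KYNU sequence TATAAA matched on the plus strand starting 66 bases before the start and, overlapping it, on the minus strand starting 68 bases before it, and once more on the minus strand at the far upstream edge of the window. Of 15813 promoters of protein-coding genes in the same table, 9.64% hold this element. The window held no letters matching GCGTG (44.1% of promoters) or TGANTCA (5.75%), and it held 1 CpG, where the median promoter held 22. A match of letters is not evidence of binding.

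The 5 genes most like KYNU in their pair of covered percentages, among 3155 genes of similar record length, were SEMA3C, ENPP2, ARHGAP42, PPARG and SLC1A3. Nearest was SEMA3C, a secreted guidance protein gene, with 29.8% of its window covered in the knockout list and 8.52% in the control list, 3.06 percentage points from KYNU. PPARG, a nuclear receptor gene of lipid metabolism, had 30.3% and 14.9%, and SLC1A3, a glutamate transporter gene, had 28.5% and 15.1%. ENPP2, which encodes autotaxin, had 22.1% and 8.32%, and the GTPase-activating protein gene ARHGAP42 had 33.2% and 13.8%. In each of these the control list covered a larger percent than the 5.49% of KYNU, which had been selected on its difference. The 5 genes were chosen on these same percentages, so their likeness to KYNU is a description of that choice.

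KMO, which hydroxylates kynurenine and so competes with kynureninase for it, is a plus-strand gene on chromosome 1 (chr1:241532378-241595642). Its window had 4 knockout peaks and 1 control peak. The main signal of both lists was near the far end of the gene. There a knockout peak of 3453 bases with a pileup of 21.4 (chr1:241590608-241594060) enclosed the control peak of 1597 bases with a pileup of 11.9. The other 3 knockout peaks were narrow, at 412, 482 and 1043 bases, with pileups of 13.9, 8.11 and 8.0, and overlapped no control peak. Over the whole knockout list 21.3% of peaks overlapped no control peak. The peaks of 482 and 1043 bases had a −log10 q of 1.13 and 1.21, near the lowest of the list (1.012). The peak of 412 bases began 443 bases after the transcription start, where the nearest control peak was 10785 bases away. A pileup of 8.0 is the lowest of the whole knockout list. With both lists held to a −log10 q of at least 5, KMO kept 3453 knockout and 0 control bases.

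AFMID, the formamidase that releases kynurenine, is a plus-strand gene on chromosome 17 (chr17:78187362-78207702). It was well covered around its start in both lists. A single knockout peak of 6276 bases with a pileup of 27.1 spanned the transcription start (chr17:78184095-78190370). The control list had a peak of 7784 bases with a pileup of 26.9 that ended 753 bases before the start and one of 3109 bases with a pileup of 24.9 that began 517 bases after it. The gap between the 2 control peaks, 1269 bases over the start, was shorter than the smallest gap of the whole knockout list (1445 bases). With equal merging, where peaks of either list up to 1444 bases apart were joined, each list had 1 peak over the start. The difference in covered bases, -1081, was just past the limit of 1000. It was -100 over the gene record without flanks, -2350 with equal merging, -4617 with peaks not clipped (chosen after seeing the data) and -9011 with 50000 bases on either side. Of the bases covered by either list 58.0% were covered by both, the second highest share among the 8 genes.

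The promoter of AFMID (chr17:78187112-78187411, plus strand, GRCh38.p14, from RefSeq) is shown because its coverage depends on how peaks were merged. All 300 of its bases lay under the knockout peak and none under a control peak as deposited, and with equal merging distances all 300 were covered in both lists. Over 15812 promoters of this length, 23.5% were wholly covered in the knockout list and 13.4% in the control list as deposited, and 23.5% and 18.2% with equal merging, a setting applied to promoters after seeing the data. Capitals mark the same elements.
AFMID promoter: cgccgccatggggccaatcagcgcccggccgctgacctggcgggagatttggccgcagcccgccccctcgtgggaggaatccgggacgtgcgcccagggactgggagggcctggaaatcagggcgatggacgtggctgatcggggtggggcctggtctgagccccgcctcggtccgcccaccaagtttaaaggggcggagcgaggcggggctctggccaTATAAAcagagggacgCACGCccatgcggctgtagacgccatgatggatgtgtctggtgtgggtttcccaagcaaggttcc

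With 25 CpGs this sequence is unlike that of KYNU. It held TATAAA starting 31 bases before the transcription start and CACGC, the minus-strand form of GCGTG, starting 15 bases before it. The coverage of the KYNU promoter, 0 knockout and 86 control bases, did not move with equal merging.

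TDO2, tryptophan dioxygenase, is a plus-strand gene on chromosome 4 (chr4:155903696-155920406), and it was the 1 gene of the 8 with peaks in the knockout list alone. A pair of knockout peaks flanked its start. One of 2218 bases with a pileup of 18.4 ended 2023 bases before the start (chr4:155899456-155901673), and one of 3065 bases with a pileup of 17.8 began 1061 bases after it (chr4:155904757-155907821). The nearest control peak was 50059 bases from the first and 43911 bases from the second. Both knockout peaks passed a −log10 q of 5 (6.76 and 5.40), and their folds over local input were 4.12 and 3.66, above the median of 3.07 of the knockout list. Of all protein-coding genes, 451 had peaks in the knockout list alone, 870 in the control list alone and 3160 in neither list.

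The promoter of TDO2 (chr4:155903446-155903745, plus strand, GRCh38.p14, from RefSeq) is shown because it lies in the gap between the 2 knockout peaks, with the nearer one 1012 bases away and the nearest control peak 47987 bases away. Capitals mark the same elements.
TDO2 promoter: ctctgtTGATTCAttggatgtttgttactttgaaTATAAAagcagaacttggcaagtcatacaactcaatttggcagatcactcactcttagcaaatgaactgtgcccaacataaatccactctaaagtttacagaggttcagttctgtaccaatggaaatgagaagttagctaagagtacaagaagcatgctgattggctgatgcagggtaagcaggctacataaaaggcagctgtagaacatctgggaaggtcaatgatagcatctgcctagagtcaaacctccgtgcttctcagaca

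It held TGATTCA, a match to the AP-1 element TGANTCA, starting 244 bases before the transcription start, and TATAAA starting 216 bases before it. It held 1 CpG, as did the promoter of KYNU. At both genes the knockout list had a peak on each side of the start and none over it, as at the record start of IDO1. Of 15812 promoters of this length, 25.8% were touched by a knockout peak, so a start without one was common.

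IDO1, the interferon-inducible indoleamine dioxygenase, lies on chromosome 8 (chr8:39913891-39928790), with its relative IDO2 next to it (chr8:39934651-40016392). The IDO1 window had 4 knockout peaks with pileups of 9.31 to 13.5 and 3 control peaks with pileups of 8.81 to 10.5, all of them under the median pileups of their lists, 16.4 and 13.6. The widest was a knockout peak of 3123 bases with a pileup of 13.5 just before the start of the record (chr8:39910141-39913263). It overlapped a control peak of 796 bases with a pileup of 8.81. Past the start of the record the control peak lay closer to it, with the knockout peak of 1700 bases beginning 937 bases after the start and the control peak of 1263 bases beginning 92 bases after it. No peak of either list at IDO1 reached a −log10 q of 5. Over the record without flanks IDO1 had 2606 knockout and 1681 control bases, a difference under 1000.

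IDO2 carried the strongest peak of the first-step genes, and most of its coverage was common to both lists. A knockout peak of 8350 bases with a pileup of 26.1 (chr8:39938497-39946846) overlapped a control peak of 8103 bases with a pileup of 14.9 over 7993 bases. The pileup ratio of this pair, 1.75, was at percentile 92.3 of all overlapping pairs, and its ratio of implied input background, 1.54, was at percentile 79.4. The next peaks were 5531 bases wide with a pileup of 15.3 in the knockout list and 4292 bases wide with a pileup of 10.7 in the control list. Of the bases covered by either list 71.8% were covered by both, the highest share among the 8 genes. A further knockout peak of 760 bases with a pileup of 9.31 lies between the 2 genes and was counted in both windows. Over the 4 overlapping pairs at IDO2 the width of the knockout peak was 0.811 to 3.26 times that of the control peak and its pileup 0.965 to 1.75 times. At KYNU the 3 pairs inside the gene had width ratios of 8.79 to 9.47, and the upstream pair had a width ratio of 1.27, within the range of IDO2.

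HAAO and QPRT, the enzymes on the way to NAD, had no knockout peak in their windows. HAAO, a dioxygenase gene on the minus strand of chromosome 2 (chr2:42767089-42792583), had a control peak of 513 bases with a pileup of 11.2, from 339 to 851 bases after the transcription start. Its −log10 q of 1.92 was at percentile 24.8 of the control list. QPRT, quinolinate phosphoribosyltransferase (chromosome 16, plus strand, chr16:29679008-29698699), had a control peak of 3325 bases with a pileup of 10.2 beyond the far end of the record (chr16:29699134-29702458). It had no covered base within the record itself in either list. Neither peak reached a −log10 q of 5.

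**Figure D5:**
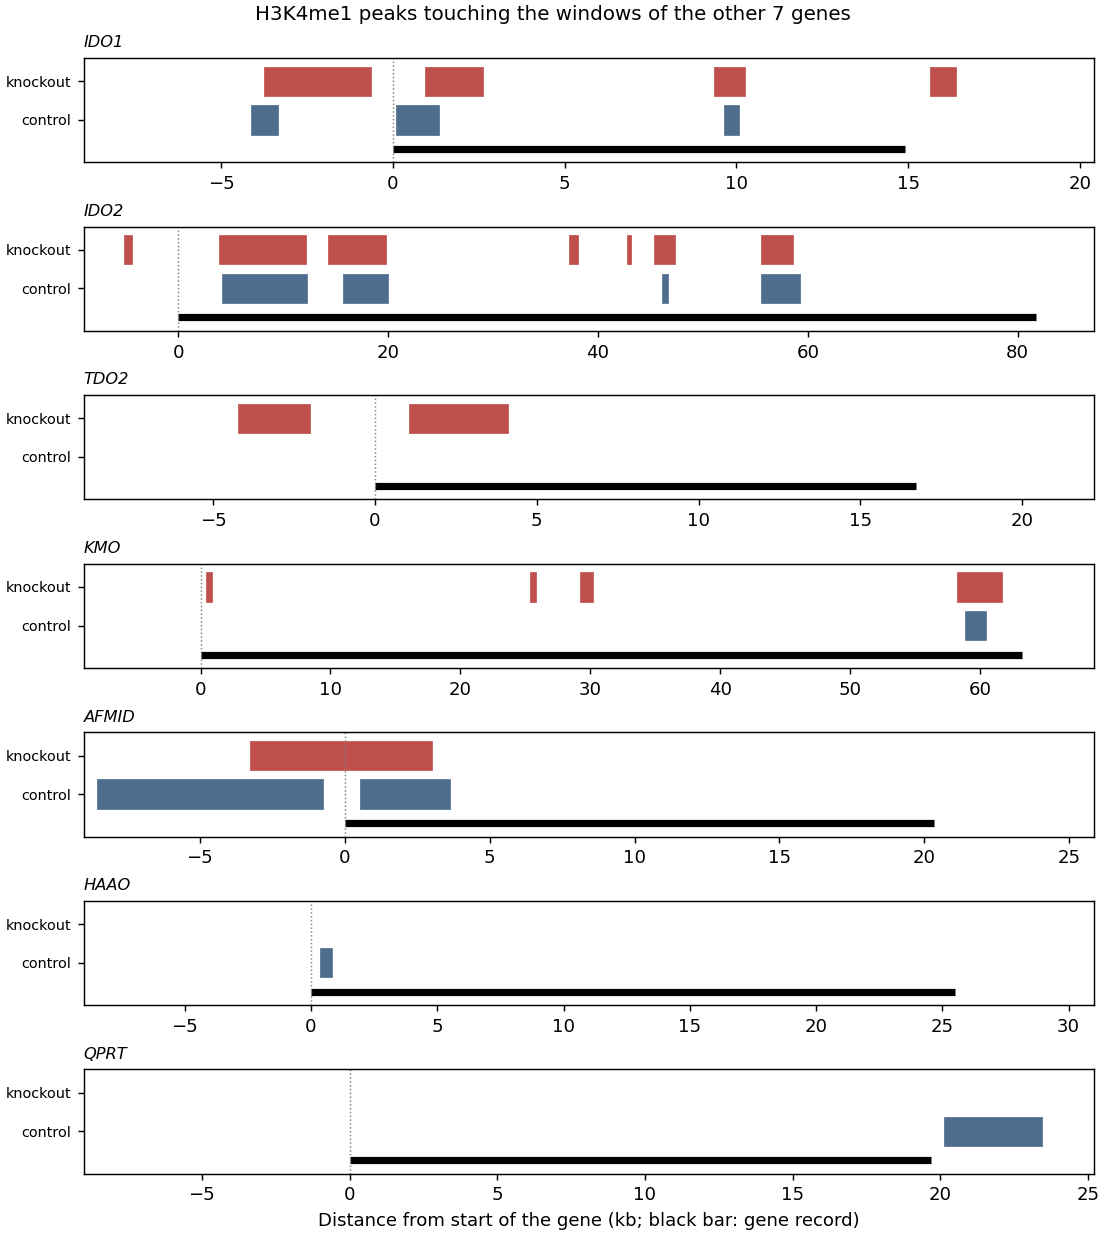
Peaks touching the windows of the other 7 genes in the ARID1A knockout list (red, upper row of each panel) and the control list (blue, lower row), by distance from the start of the gene in kb (x axis of each panel, not to one scale); black bars are gene records. TDO2 has peaks in the knockout list alone, HAAO and QPRT in the control list alone, and the knockout peak of AFMID spans the start, as does the control peak once merging distances are equal.

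Lists of genes around the pathway were counted in the same way. The lists that follow stand beside the same shares of all genes, 20.2% called higher and 30.0% called lower. Of 9 other enzymes of kynurenine handling and NAD synthesis, 5 were higher and none lower, with a median difference of 2084 bases. NMNAT2, which makes NAD from its mononucleotide, had 25422 knockout and 20594 control bases, and KYAT1, which turns kynurenine into kynurenic acid, had 15093 and 12497. Of 10 genes of other tryptophan use and tryptophan transport, none was higher and 8 were lower, with a median difference of -3184.5 bases. SLC3A2, a subunit of the large amino acid transporter, had 11258 knockout and 17608 control bases, and WARS1, the tryptophanyl-tRNA synthetase, had 3647 and 8978.

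Among 8 genes of NAD salvage and use, 2 were higher and 3 lower (median difference -456.5 bases). The NAD hydrolase gene CD38 had 5015 knockout and 1505 control bases and the methyltransferase gene NNMT 20474 and 19354, whereas NAMPT, the salvage enzyme, had 15882 and 22921 and the kinase gene NMRK2 0 and 2232. Among 8 receptors and effectors of kynurenine metabolites, 2 were higher and 2 lower (median -655 bases). CYP1B1, a target of AHR, had 11351 knockout and 4781 control bases and its partner gene ARNT 8288 and 5426. The AHR repressor gene AHRR had 8916 and 14519, and AHR itself had 14065 and 15537. Among 8 genes listed for regulation of the first step, 2 were higher and 3 lower (median 199.5 bases). The receptor gene IFNGR1 had 7434 knockout and 4322 control bases and the transcription factor gene IRF1 7455 and 6117, whereas IFNGR2 had 10876 and 14267 and JAK1 46752 and 49520.

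Of all 19974 protein-coding genes, 16814 had a peak in either list, so a peak at a marker says little by itself. Peaks lay at all 6 markers of mesenchymal-like breast cancer cells such as VIM, CD44 and AXL, with 7431 to 94961 covered bases in the knockout list and 7005 to 92086 in the control list. The 4 luminal markers also carried peaks in both lists (3046 to 36816 and 4591 to 27383 bases), so the mark does not separate the labelled line from luminal cells. Of 3 liver markers, ALB and TTR were without a peak in both lists and APOA1 had 832 knockout and 712 control bases. All 4 myeloid markers had peaks in both lists, 42238 bases in sum in the knockout list and 29945 in the control list. PTPRC and CD14 were higher in the knockout list, by 12440 and 1268 bases, CSF1R was lower, and ITGAM differed by 1 base. The part of other cell types in the differences at kynurenine genes was not tested.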

How the data were processed

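H3K4me1 ChIP-seq of MDA-MB-231 cells with and without ARID1A knockout was analysed from 1 deposited peak list per genotype. Chromatin had been cut by micrococcal nuclease, per the labels' protocols. The protocol text names an H3K4me3 antibody, whereas titles and antibody labels say H3K4me1. Alignment and peak tools were Bowtie2 2.3.5.1 and MACS2 2.2.6, with hg38, per the submitters' processing notes. Their settings, and whether replicates were pooled, are not stated there. Each deposited list holds, per the file headers, positions, a pileup (signal), a fold over input and −log10 values of p and q. The lowest −log10 q was 1.012 in the knockout list and 1.009 in the control list. Depth is unknown because no read total was used.

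Peaks on chromosomes 1 to 22 and X were kept, leaving out 3 knockout and 6 control peaks. The smallest gap between neighbouring peaks was 1445 bases in the knockout list and 1249 in the control list, so the lists seem to have been merged at different distances; an alternative applied 1444 bases and a shortest peak of 361 bases to both. Covered bases were computed with Python 3.11.15, numpy 2.4.6 and pandas 2.3.3 over GRCh38.p14 RefSeq records with 5000 bases on either side, and the counting was checked on simulated peaks. Overlap meant at least 1 base. Input background was estimated as (pileup + 1) / fold − 1, assuming a pseudocount of 1. All pair statistics used pairs in which each peak overlapped 1 peak of the other list. Strand and promoters came from the RefSeq promoter table, matched for 6 of the 8 genes.

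The members, gene lists, motifs and tests were chosen with earlier results of these data known. All 8 members were named, with the neighbours of KYNU, the 5 genes nearest to it in covered percentages, and up to 2 genes per list and direction with the greatest difference of at least 1000 bases. A listed gene is not reported here. Alternatives were thresholds, peak number, window, merging and overlap. With 1 list per genotype, no p-value was calculated.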

Additional observations from a re-analysis of the deposited data

How the results depend on the processing

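The knockout excess at KYNU (46653 covered bases) was 45829 bases with a −log10 q cutoff of 2 and with the 60000 strongest peaks of each list, 46743 with no flank, 46142 with 10000 bases on either side and 54505 with 50000. It was the same with equal merging distances. It was -90 bases with a −log10 q cutoff of 5, a difference under the limit of 1000. With a fold cutoff of 4 it turned to -4836, where the only peak left was the upstream control peak. It was 49769 with peaks not clipped, an alternative chosen after seeing the data. Members called higher numbered 3 of 8 with the −log10 q cutoff of 5 (26.7% of all genes were then called higher and 17.7% lower), against 5 in the lists as deposited; in the other alternatives they numbered 4 or 5 (14.5% to 26.2% of all genes with the 1000-base limit). Members called lower numbered 2 as deposited, 1 with the −log10 q cutoff of 5 and 1 with the fold cutoff of 4 (19.4% of all genes). They numbered 0 with no flank (24.5%) and 3 with 50000 bases on either side (46.0%). With a difference of at least 2000 bases (also chosen after seeing the data) the number was 1, and the share of all genes was not computed. KYNU knockout peaks without a control counterpart numbered 0 of 1 with the −log10 q cutoff of 5, against 3 of 7. They numbered 6 of 7 when the overlap had to reach 50% of the knockout peak. The share of all knockout peaks under either rule was not computed, so these counts have no background. With the fold cutoff of 4 no knockout peak was left to count. With equal merging the AFMID difference was -2350 bases and its control peaks joined over the start; coverage of promoters under this setting was added after seeing the data. AFMID turned to 2028 bases higher in the knockout list with the fold cutoff of 4. Among the 63 values of the other 7 genes under these alternatives this was the 1 that changed sign. Another 39 moved without changing sign, some of them to 0, and 23 were the same. The differences at IDO1, HAAO and QPRT were 0 with the −log10 q cutoff of 5 and with the fold cutoff of 4. Causes were not tested beyond the peaks each cutoff removed. No paired analysis was possible because the deposited lists carry no replicate number. Without replicates or read totals, the lists do not show how far 2 cultures of 1 genotype would differ.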
